A study of Mus musculus with 10 samples.

Results

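The SLC25 family is a set of proteins, most of which carry metabolites across the inner membrane of mitochondria. Its mRNAs were followed here in hearts of Lmna knockout mice. Members were all genes in the deposited per-library table named Slc25a followed by a number, which gave 42 of 14626 genes. A total of 39 members reached a mean signal of 1 over the 10 libraries and were tested among 12855 genes. Slc25a2, Slc25a18 and Slc25a31 stayed under that level and were not tested.

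Total RNA was sequenced from hearts of mice lacking Lmna on both alleles (Lmna KO, 5 libraries, KO 1 to KO 5) and of wild-type mice (WT, 5 libraries, WT 1 to WT 5). All animals were 14 days old and on a C57BL/6 background. Lmna encodes lamin A and lamin C of the nuclear lamina. The labels name no exon, allele or Cre line and no sex, so nothing more can be said of the deletion. Each library carries its own animal number in the labels, and the design text counts 5 mice per genotype. The values are counts scaled to the authors' effective library size (scaled CPM), called signal below.

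SLC25 proteins share a fold built from repeats of a pair of membrane helices and are encoded in the nucleus. Most are brought into the inner membrane of mitochondria by the TOM and TIM22 import machinery. Most exchange or import particular substrates, among them ADP and ATP, phosphate, carboxylates, acylcarnitines, amino acids, cofactors and iron. In heart muscle the adenine nucleotide carriers export the ATP that contraction uses, and the carboxylate and aspartate carriers let reducing power from the cytosol enter mitochondria. Because the libraries are of whole tissue, fewer cells of a type and less RNA per cell cannot be told apart.

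Lmna itself had a signal of 33.7 ± 10.3 in Lmna KO and 106 ± 2.95 in WT (SD, n = 5 each), with no overlap between the groups (exact permutation test, two-sided, p = 0.00794, the smallest that 5 against 5 libraries allow). Libraries held 15259545 to 22146030 reads. KO 5 and KO 2 stood apart: their mean correlations with the WT libraries over all genes were 0.905 and 0.962, against 0.982 to 0.985 in the other KO libraries and 0.989 to 0.991 among WT libraries. All 10 cardiomyocyte markers examined were present in every library, and their summed signal was 50400 to 93900 in Lmna KO and 97800 to 108000 in WT. Myh6 was the largest part of that sum, with means of 31920 in Lmna KO and 44400 in WT. The markers did not all move alike. Their log2 changes ran from -0.97 for Actc1 to -0.05 for Pln and -0.04 for Tnnt2, and Tnnt2 was 8581 in KO 5, against 3936 to 4595 in WT. The summed signal of 6 endothelial markers was also wholly lower, at 863 to 1170 in Lmna KO and 1240 to 1330 in WT. The fibroblast, mural and macrophage sums overlapped between the genotypes. The 4 atrial markers summed to 6882 in KO 5, to between 100 and 200 in the other KO libraries and to 25.4 to 71.9 in WT. Nppa alone was 6767 in KO 5. Bmp10 was 17.3 in KO 5 and at 0 in every WT library. The other markers did not set KO 5 apart in the same way. Myl7 was 81.5 in KO 5 but also 54.8, 36.9 and 13.9 in KO 1 to KO 3, against at most 0.510 in WT. Sln was highest in KO 2, at 17.45, with 16.2 in KO 5. KO 2 alone had a clear signal of the brown fat gene Ucp1, 12.6, against 0.134 or less in each other library. Of the other brown adipocyte markers, Adipoq and Plin1 were also highest in KO 2, at 3.17 and 0.921. Cidea went the other way and was lowest in KO 2, at 22.75. The part of these differences in the results on the carriers was not tested, and values with and without KO 5 or KO 2 are given below.

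The main result on the family as a whole was that no carrier passed the main test. With all libraries weighted alike, 0 of 39 members had an adjusted p under 0.05 (limma, Benjamini-Hochberg over all 12855 genes), where 0.202% of all genes tested did, 0.117% higher and 0.0856% lower in Lmna KO. The lowest adjusted p of a member was 0.122. At an unadjusted p under 0.05 the limma count was 4 of 39, 1 higher and 3 lower in Lmna KO, and 20.8% of all genes were past that mark. The quasi-likelihood test of edgeR on recovered reads called 0 of 39 members, against 0.156% of all genes. It had 3 members at an unadjusted p under 0.05, beside 21.2% of all genes. Without KO 5, limma called 0 of 39 members beside 4.98% of all genes, and edgeR's quasi-likelihood test 0 of 39 beside 4.85%. Each had 4 members at an unadjusted p under 0.05, beside 22.5% of all genes with limma and 22.4% with edgeR. Limma with a weight for each library called 3 of 39 members lower and 1 higher, where 17.7% of all genes were called, 10.1% lower and 7.63% higher. At an unadjusted p under 0.05 that fit had 9 of 39 members, beside 32.9% of all genes. DESeq2 on the reads of all libraries called 1 of 39, Slc25a29, as lower in Lmna KO, against 6.15% of all genes, 2.52% in that direction. The authors' deposited table also lists 1 member under a false discovery rate of 0.05, Slc25a29, lower in Lmna KO, where it lists 1.59% of all its rows as lower and 3.93% as higher at that rate.

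The members' changes were small and of both signs. In Lmna KO against WT, 15 of the 39 log2 changes were positive and 24 negative, with a median of -0.06. Over all 12855 genes tested, 6605 changes were negative and the median was -0.01. Without KO 5 the medians were -0.015 for the family and -0.013 for all genes. The 95% confidence intervals of limma reached a median of 0.35 log2 units to either side of the estimate. For 23 members the whole interval lay within a 1.5-fold change in either direction. For the other members a change of more than 1.5-fold is not excluded by the interval.

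**Figure D1:**
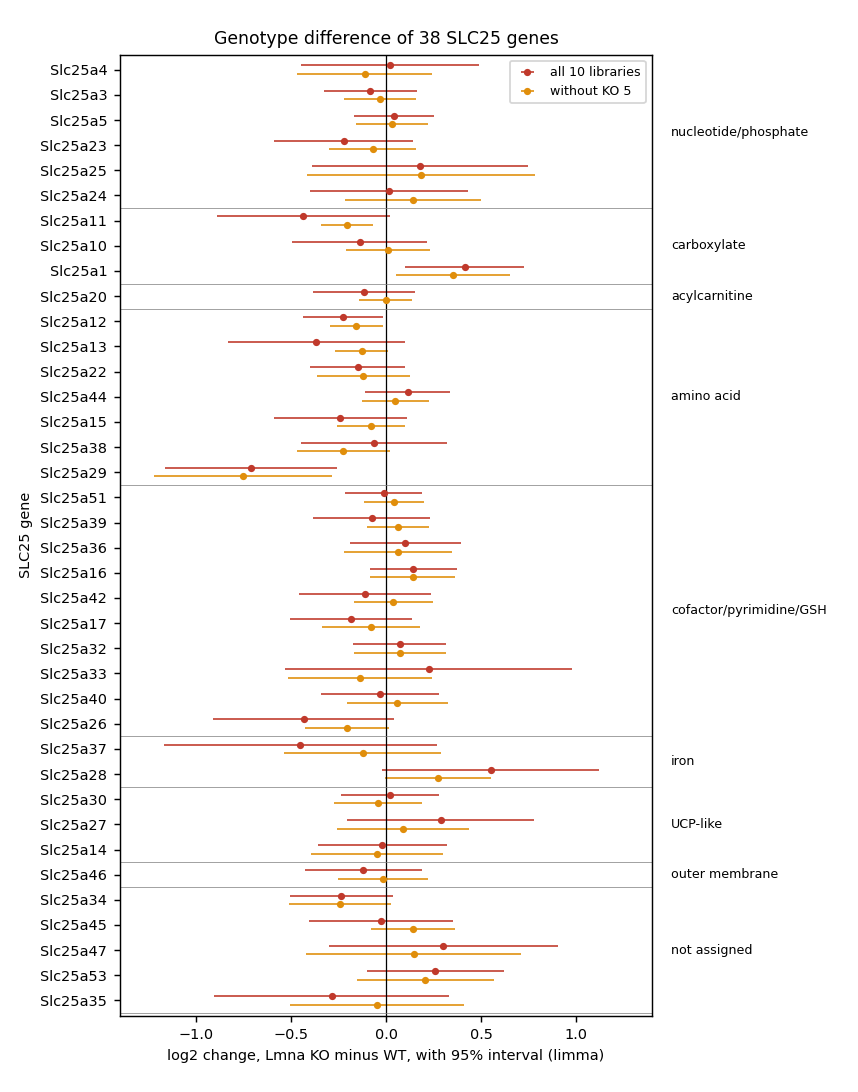
Log2 change, Lmna KO minus WT, of 38 SLC25 genes tested, grouped by substrate class down the page, with the 95% confidence interval of limma from all 10 libraries and without KO 5 (x axis, log2 units). Most intervals cross 0, and leaving out KO 5 moves several estimates towards 0, among them Slc25a11, at -0.44 with all libraries and -0.20 without KO 5.

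Levels within the family were uneven. Per kilobase of merged exon, Slc25a4 averaged 2992 signal units in Lmna KO and 2849 in WT, Slc25a3 569.9 in Lmna KO and 601.7 in WT, and Slc25a5 341 in Lmna KO and 331 in WT. Slc25a11 and Slc25a20 ranked next in both genotypes, with Slc25a34, Slc25a13, Slc25a39 and Slc25a12 after them. The 4 members with the most reads made up 81.2% of the signal of the family in WT. In WT, 10 members averaged over 100 signal units, 21 lay between 10 and 100, and 11 lay under 10. The genes lie on 18 chromosomes.

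The adenine nucleotide and phosphate carriers include the most abundant members. Slc25a4 encodes ANT1, the ADP/ATP carrier of heart and skeletal muscle (mm10, chromosome 8, 46207341 to 46211009, minus strand), and Slc25a5 encodes ANT2, the more broadly expressed isoform (chromosome X, 36795652 to 36798806, plus strand). Reads are assigned between them by sequence, so a stretch of both coding sequences is shown to let their difference be seen. The sequences below are coding bases 301 to 390 of each, from the GENCODE M21 transcripts, 5′ to 3′, with the 22 bases that differ in capitals.
Slc25a4: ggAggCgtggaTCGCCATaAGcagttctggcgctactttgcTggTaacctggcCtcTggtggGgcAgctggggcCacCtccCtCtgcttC
Slc25a5: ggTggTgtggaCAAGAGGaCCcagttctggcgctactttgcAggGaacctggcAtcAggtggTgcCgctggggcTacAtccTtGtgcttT
Over 888 aligned coding bases the pair was 78.6% identical, and the longest run without a difference was 20 bases. How reads that fit several genes were counted is not given in the sources used here.

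Slc25a4 had a signal of 5789, 3428, 5531, 6001 and 8051 in KO 1 to KO 5, and of 5539, 5565, 5525, 5128 and 5662 in WT 1 to WT 5. KO 5 was far above and KO 2 far below every WT library, KO 1 and KO 4 were just above them, and KO 3 was inside the WT range, so the groups overlapped. The log2 change was 0.02 with a 95% interval of -0.45 to 0.49 (limma, adjusted p = 0.963). Slc25a3, which imports the phosphate for ATP synthesis and also carries copper, had 1090, 1293, 1093, 1109 and 962.1 in Lmna KO and 1203, 1167, 1205, 1058 and 1222 in WT. Here the order of the odd libraries was the other way round, with KO 2 above and KO 5 below the WT range. Slc25a5 had 432.1, 477.8, 387.6, 385.6 and 431.5 in Lmna KO and 418.2, 391.9, 425.2, 376.8 and 440.5 in WT, and only KO 2 left the WT range. Neither was called, with log2 changes of -0.08 for Slc25a3 and 0.04 for Slc25a5 and adjusted p values of 0.68 and 0.828 (limma).

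The share of Slc25a4 in the summed signal of the family followed these 2 libraries. It was 62.4%, 46.7%, 61.5%, 62.8% and 73.4% in KO 1 to KO 5 and 59.2% to 59.7% in the WT libraries. KO 2, with the lowest share, was also the library with Ucp1 signal, and KO 5, with the highest, the one with the high atrial sum, most of it Nppa. The summed signal of all other members was 2914 in KO 5 and 3466 to 3905 in the other KO libraries, against 3532 to 3829 in WT. The calcium-dependent ATP-Mg/phosphate carriers Slc25a23, Slc25a24 and Slc25a25 averaged 17.8 ± 4.25, 15.4 ± 5.12 and 17.8 ± 7.28 in Lmna KO, against 20.4 ± 2.02, 14.7 ± 1.10 and 15.1 ± 3.38 in WT (SD, n = 5), with log2 changes between -0.22 and 0.18. Slc25a31, which encodes the testis isoform ANT4, stayed under 1 signal unit in every library. The median log2 change of the 6 tested members of this class was 0.02.

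**Figure D2:**
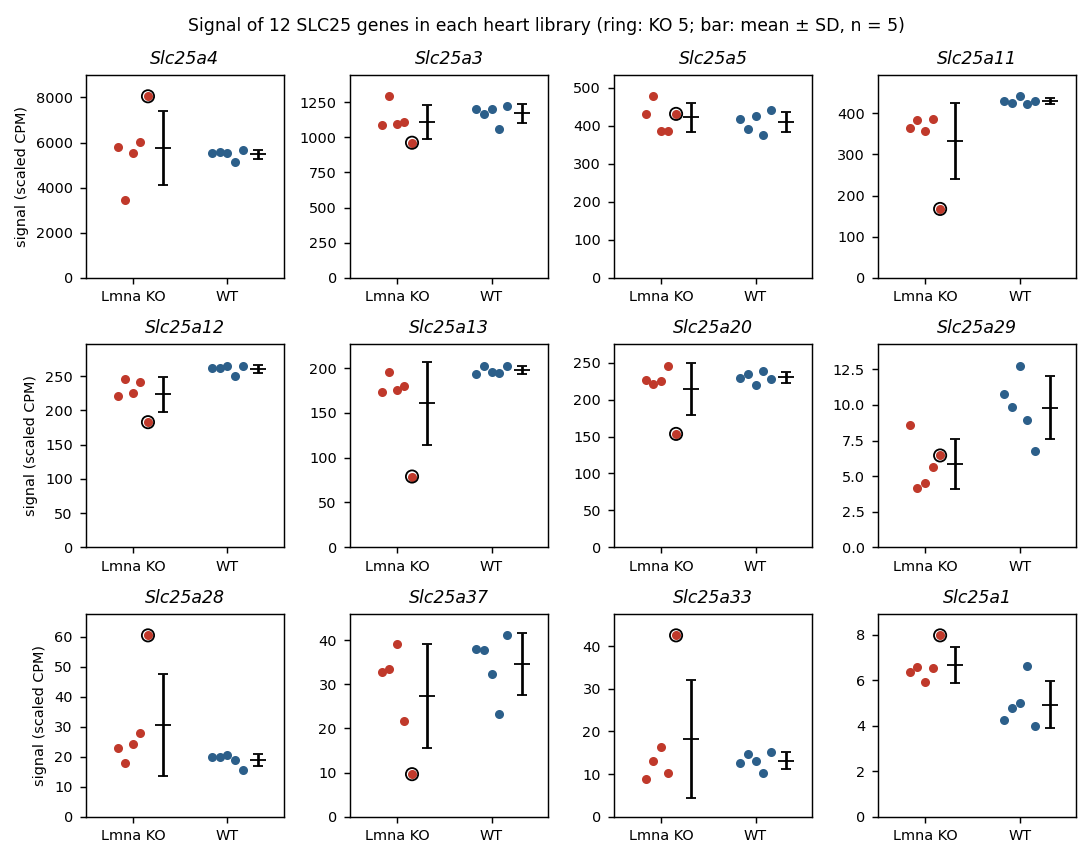
Signal (y axis, scaled CPM, linear from 0) of 12 SLC25 genes in each of 5 Lmna KO and 5 WT heart libraries, with the mean ± SD at the side and KO 5 ringed. The ringed library is the highest of the KO points for Slc25a4 (8051), Slc25a28 (60.5) and Slc25a33 (42.5) and the lowest for Slc25a11 (167), Slc25a13 (78.9) and Slc25a20 (154).

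The carriers that serve the malate-aspartate shuttle had lower mean signals in Lmna KO than in WT. Slc25a11, the oxoglutarate/malate carrier (chromosome 11, 70644027 to 70647039, minus strand), had a signal of 365.2, 384.6, 356.6, 385.6 and 167.4 in KO 1 to KO 5, against 429.4, 425.4, 441.6, 422.9 and 430.5 in WT. All 5 KO libraries were below all 5 WT libraries, and KO 5 was far below the other 4. Slc25a12, the aspartate/glutamate carrier aralar (chromosome 2, 71274295 to 71367554, minus strand), had 221.3, 246.7, 225.4, 242 and 182.9 in Lmna KO, against 261.6, 261.7, 265.3, 250.1 and 264.6 in WT. Again no KO library reached the WT range, although KO 2, at 246.7, was close to WT 4, at 250.1.

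These 2 were the only members of 39 whose groups did not overlap, both with KO below, while 6.18% of all genes tested lay wholly below, 4.07% wholly above, and 10.3% did not overlap in either direction, so the members' count of 2 is under that share. Slc25a13, the aspartate/glutamate carrier citrin (chromosome 6, 6041218 to 6217173, minus strand), described here after its values were seen, had 173.4, 195.7, 175.2, 179.7 and 78.93 in Lmna KO and 193.2, 202.4, 196.1, 194.8 and 202.5 in WT. Only KO 2 was inside the WT range, and KO 5 again had by far the lowest value.

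None of the 3 was called by the main test, limma with all libraries weighted alike. Slc25a11 had a log2 change of -0.44 (SE 0.21, limma, adjusted p = 0.251), Slc25a12 of -0.23 (SE 0.10, adjusted p = 0.214) and Slc25a13 of -0.37 (SE 0.21, adjusted p = 0.329). Without KO 5 the estimate for Slc25a11 was -0.20 in log2 units (limma, adjusted p = 0.0799), and those for Slc25a12 and Slc25a13 were -0.16 and -0.13 (adjusted p = 0.172 and 0.256). Without both KO 2 and KO 5 all 3 were called lower in Lmna KO, with log2 changes of -0.22, -0.18 and -0.17 in the same order (adjusted p from limma of 0.0171, 0.0411 and 0.0419). With a weight for each of the 10 libraries, limma also called Slc25a11 and Slc25a12, with log2 changes of -0.25 and -0.20 (adjusted p = 0.0179 and 0.0161). Without KO 2 and KO 5, with the spread of 3 KO libraries only, 3 of 39 members were lower and 1 higher, and 10.7% of all genes were called, 6.42% lower and 4.24% higher, so the family's share was near that of all genes.

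Of the other carboxylate carriers, Slc25a1 did not share the low values, and Slc25a10 was below the WT range in KO 5 only. Slc25a1, the citrate carrier, named here after its values were seen, had a signal of 6.35, 6.57, 5.91, 6.54 and 7.97 in Lmna KO, against 4.23, 4.78, 5.01, 6.63 and 4 in WT. All KO libraries were above 4 of the WT libraries but most were below WT 4, so the groups overlapped (log2 change 0.41, SE 0.14, limma, adjusted p = 0.155). Slc25a10, which exchanges dicarboxylates for phosphate, averaged 10.7 ± 2.39 in Lmna KO and 11.6 ± 1.14 in WT (SD, n = 5 each). Its signal was 6.755 in KO 5 and 10.83 to 13.23 in the other KO libraries, against 10.35 to 13 in WT. The log2 change of Slc25a10 was -0.14 with all libraries and 0.008 without KO 5. Slc25a20, the carnitine/acylcarnitine carrier that brings fatty acids in for oxidation, had 226.8, 221.4, 226.1, 246 and 153.7 in KO 1 to KO 5 and 228.9, 235.4, 220, 238.9 and 227.9 in WT 1 to WT 5. Only KO 5 was clearly low, and the log2 change was -0.12 with all libraries and 0.00 without KO 5, with an interval in the first case of -0.39 to 0.15.

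Among the amino acid carriers 6 of 7 tested members had negative log2 changes, with a median of -0.23, or -0.13 without KO 5. Slc25a29 is a carrier of basic amino acids (chromosome 12, 108825878 to 108835876, minus strand) and is described after its values were seen. Among the 39 members tested it had the largest log2 change in the main fit. Its signal was 8.58, 4.15, 4.51, 5.62 and 6.45 in KO 1 to KO 5, against 10.75, 9.84, 12.75, 8.97 and 6.74 in WT. A total of 4 KO libraries lay under the whole WT range, and KO 1 was above WT 5 only, so the groups overlapped. The log2 change was -0.71 (SE 0.21, limma, adjusted p = 0.122), -0.75 without KO 5 (adjusted p = 0.0676) and -0.63 without KO 2 and KO 5 (adjusted p = 0.0815). DESeq2 gave an adjusted p of 0.0401, and the authors' deposited table lists a log2 ratio of -0.74 with a false discovery rate of 0.0414. With library weights, limma called it at a log2 change of -0.82 (adjusted p = 0.00949). The main limma test and edgeR's quasi-likelihood test did not call it. Slc25a47 lies 15.3 kb from it on the same chromosome and had a signal of only 2.15 ± 1.01 in Lmna KO and 1.54 ± 0.38 in WT (SD, n = 5 each).

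The remaining amino acid carriers varied less. Slc25a15, the ornithine carrier of the urea cycle, averaged 16.1 ± 3.71 in Lmna KO and 18.6 ± 0.84 in WT, and the glutamate carrier Slc25a22 25.7 ± 1.38 in Lmna KO and 28.8 ± 4.37 in WT (SD, n = 5 each). Slc25a38, the glycine carrier that feeds heme synthesis, was 19.1 in KO 5 and 9.49 to 12.6 in the other KO libraries, against 11.6 to 14.8 in WT. Slc25a44, a carrier of branched-chain amino acids, is the member nearest to the deleted gene: it lies 56.0 kb from Lmna on chromosome 3. Its signal was 26.5, 24.4, 22.0, 24.4 and 30.5 in KO 1 to KO 5 and 22.9, 23.2, 25.6, 23.8 and 21.9 in WT. The groups overlapped, and the log2 change was 0.11 (95% interval -0.11 to 0.33, limma, adjusted p = 0.523). Slc25a2, a second ornithine carrier, and Slc25a18, a second glutamate carrier, stayed near or under 1 signal unit, with highest values of 1.22 and 1.22, both in KO 5.

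The 2 iron carriers had estimates of opposite sign, and neither was called by the main test. Slc25a28, mitoferrin 2, the more broadly expressed of them (chromosome 19, 43663801 to 43674881, minus strand) and named after its values were seen, had a signal of 22.85, 17.97, 24.28, 28.02 and 60.54 in KO 1 to KO 5, against 19.96, 19.78, 20.57, 19.02 and 15.73 in WT. KO 1, KO 3, KO 4 and KO 5 were above every WT library, KO 2 was inside the WT range, and KO 5 was more than 2 times any other library. The log2 change was 0.55 (SE 0.26, limma, adjusted p = 0.251) with all libraries, 0.27 without KO 5 (adjusted p = 0.23) and 0.39 without KO 2 and KO 5, where it was called (adjusted p = 0.0337). It was also called with all libraries under library weights (log2 change 0.35, limma, adjusted p = 0.028). Slc25a37, mitoferrin 1, which supplies iron for heme in red cell precursors (chromosome 14, 69241851 to 69285103, minus strand), had 32.7, 33.6, 39.1, 21.6 and 9.65 in Lmna KO and 38.03, 37.9, 32.4, 23.2 and 41.1 in WT. KO 5 and KO 4 were under the WT range, and WT 4 was the lowest of its own group. The log2 change was -0.45 (95% interval -1.17 to 0.27, limma, adjusted p = 0.43) and -0.12 without KO 5 (adjusted p = 0.74).

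The signal of Slc25a37 was set beside that of red cell transcripts in the same libraries. The summed signal of the erythroid markers Alas2 and Slc4a1 was 113.2, 120.9, 141.4, 56.7 and 26.5 in KO 1 to KO 5, against 111, 111.9, 96.2, 69.2 and 130.7 in WT. On the log2(signal + 0.5) scale over all 10 libraries, Slc25a37 had a Pearson r of 0.984 and a Spearman rho of 0.879 with that sum. Of all genes tested 0.0156% had an r at least as far from 0. Without KO 4 and KO 5, the 2 libraries farthest from the median sum, r was 0.909, a size reached by 0.249% of all genes. Slc25a28 had an r of -0.858, a size reached by 5.04% of all genes, and of 0.10 without those 2 libraries, so that value rests on them. Slc25a38 had an r of -0.851, a size reached by 5.86% of all genes, and of -0.66 without them. Members with other substrates had values of larger size than these 2. Slc25a27, an uncoupling protein-like member, had an r of -0.933, a size reached by 0.327% of all genes, and of -0.67 without KO 4 and KO 5. The ornithine carrier Slc25a15 had an r of 0.90, a size reached by 1.59%, and of 0.34 without KO 4 and KO 5. By rank, the value of Slc25a37 was not particular to it. The ATP-Mg/phosphate carrier Slc25a24 also had a rho of 0.879, with an r of 0.792, a size reached by 14.8% of all genes. Slc25a38 had a rho of -0.879. For rho, the share of all genes is not given. These relations were looked at after the values had been seen and pool both genotypes, so they are given as a description with no p value. With 5 libraries per genotype no value within a genotype is given.

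**Figure D3:**
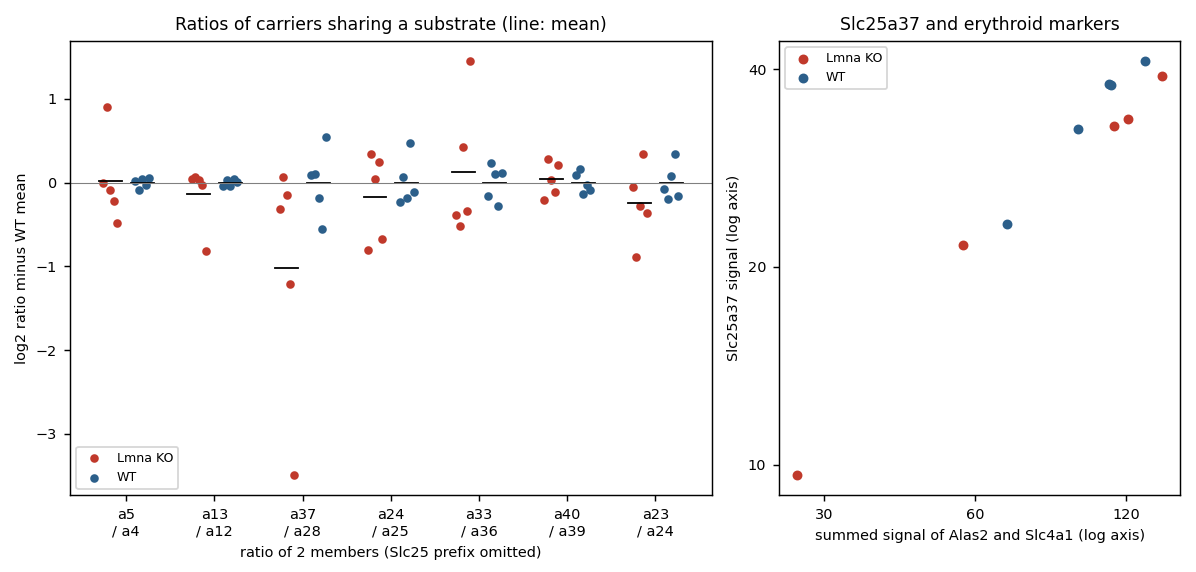
Left, log2 ratio of the signal of paired SLC25 genes in each library, relative to the WT mean of that ratio (y axis, log2 units), for 7 pairs, with Lmna KO points left of WT points and lines at the group means. Right, Slc25a37 signal against the summed erythroid marker signal in the same 10 libraries (both axes logarithmic), where KO 5, at 26.5 and 9.65, is lowest on both.

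Ratios between close relatives were compared because they do not depend on the scaling of a library. None of the 7 ratios tested differed between genotypes (exact permutation test of 5 against 5 log2 ratios, two-sided, adjusted p between 0.889 and 0.976). Slc25a5 over Slc25a4 was 0.0746, 0.139, 0.0701, 0.0642 and 0.0536 in KO 1 to KO 5, against 0.0755, 0.0704, 0.0770, 0.0735 and 0.0778 in WT. The KO values spanned a wider range on both sides of WT, with KO 2 at the top and KO 5 at the bottom, and the mean log2 ratios were -3.72 ± 0.52 in Lmna KO and -3.74 ± 0.06 in WT (SD, n = 5 each). For Slc25a13 over Slc25a12, KO 5 had a log2 ratio of -1.21, while the other 9 libraries lay between -0.44 and -0.33. The largest mean difference was that of Slc25a37 over Slc25a28, -1.02 in log2 units (exact permutation test, p = 0.127, adjusted 0.889). The pair Slc25a18 and Slc25a22 was left out because of the low signal of Slc25a18.

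The carriers of cofactors, pyrimidine nucleotides and glutathione held 11 tested members with a median log2 change of -0.03, and the 10 described here lay between -0.43 and 0.22. Slc25a51, the NAD carrier and the most abundant of them, had a signal of 123.9, 146.7, 122.4, 128.9 and 107.8 in KO 1 to KO 5 and 123, 124.6, 132.3, 122.7 and 129.6 in WT. KO 2 was above and KO 5 below the WT range, KO 3 was just under it, and KO 1 and KO 4 were inside it (log2 change -0.01, 95% interval -0.21 to 0.19, limma). Slc25a39 and Slc25a40, which serve glutathione import, averaged 71.3 ± 14.2 and 13.6 ± 3.17 in Lmna KO, against 73.8 ± 3.92 and 13.7 ± 0.65 in WT (SD, n = 5). Slc25a33, a pyrimidine nucleotide carrier, was 42.5 in KO 5 and 8.76 to 16.3 in the other KO libraries, against 10.2 to 15.1 in WT, and its log2 change was 0.22 with and -0.14 without KO 5. It was named after its values were seen.

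The uncoupling protein-like members, the outer membrane member and those without an assigned substrate gave no call either. Slc25a30 had a signal of 9.43, 11, 11.2, 10.8 and 13.2 in KO 1 to KO 5, against 9.94, 9.98, 10.1, 12.2 and 12.6 in WT, so the groups lay on top of each other (log2 change 0.02). Slc25a46, which sits in the outer membrane and takes part in the upkeep of mitochondrial shape, had 116.7, 164, 120.3, 115.9 and 88.9 in Lmna KO, against 130.4, 129.9, 125.5, 117.2 and 143.8 in WT. KO 2 was above and 3 KO libraries were below the WT range (log2 change -0.12, limma, adjusted p = 0.636). Slc25a34, an orphan carrier that was the sixth most abundant member per kilobase, had 170.2, 154.7, 211.9, 227 and 192.9 in Lmna KO, against 220.5, 268.6, 220.4, 209.9 and 202.3 in WT. KO 1, KO 2 and KO 5 were below every WT library and the other 2 were inside the WT range (log2 change -0.24, SE 0.12, limma, adjusted p = 0.293). Slc25a35, Slc25a45, Slc25a47 and Slc25a53 averaged 1.42 to 5.35 in Lmna KO and 1.45 to 5.33 in WT, where counting error is large.

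**Figure D4:**
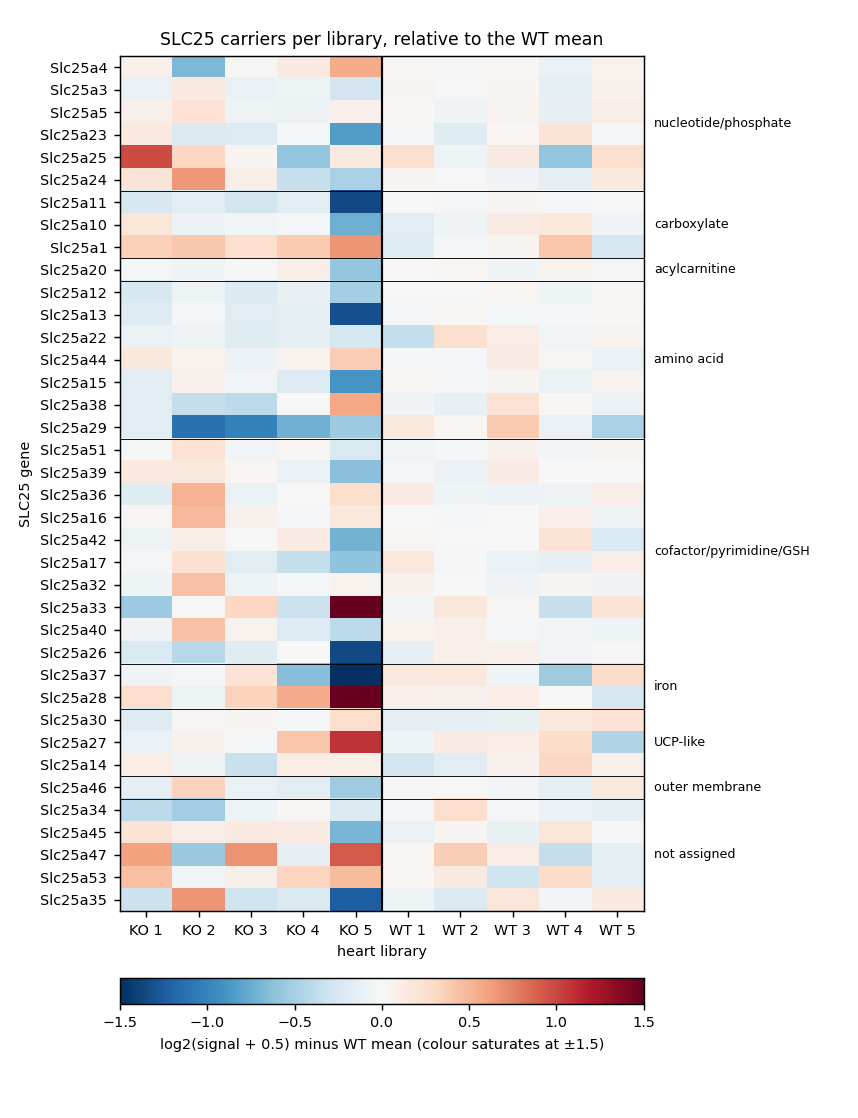
Colour gives log2(signal + 0.5) minus the WT mean for 38 SLC25 genes tested (rows, by substrate class) in 5 Lmna KO and 5 WT heart libraries (columns), with red above and blue below the WT mean and saturation at 1.5. The KO 5 column holds most of the strong colour, with a median of -0.28 over the 39 members, and KO 2 is the next most uneven.

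Library by library, KO 5 was the one in which most carriers left the WT range. In it 22 of 39 members were below and 12 above every WT library, against 41.9% and 40.9% of all genes tested. The members' median deviation from the WT mean was -0.28 in KO 5 and -0.05, 0.01, -0.05 and -0.02 in KO 1 to KO 4, in log2 units. In KO 2, 10 members were below and 14 above, against 38.1% and 34.7% of all genes. KO 1, KO 3 and KO 4 had 13, 13 and 12 members below, where 25.4%, 26.3% and 28.9% of all genes were, and 10, 3 and 5 above, where 23.8%, 24.4% and 27.6% were. In KO 3 and KO 4 fewer members lay above the WT range, as a share, than among all genes, a description that was not tested. By more than 1.5-fold, 13 of 39 members were below and 5 above the WT mean in KO 5, against 24.1% and 20.4% of all genes. In KO 2 the counts were 3 below and 2 above, against 13.4% and 8.93% of all genes. KO 1, KO 3 and KO 4 had 0, 1 and 3 members below, beside 1.78%, 2.22% and 3.43% of all genes. They had 2, 1 and 0 members above, beside 2.46%, 3.32% and 4.25% of all genes.

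**Figure D5:**
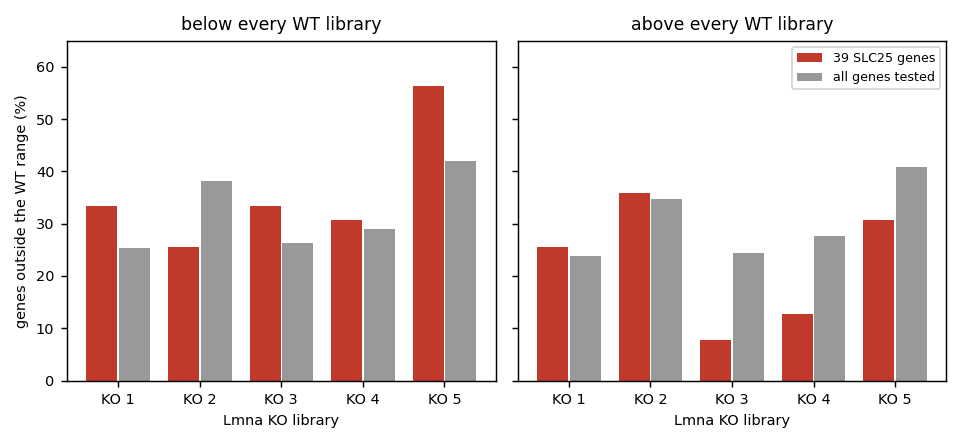
Percent of genes below (left) and above (right) all 5 WT libraries in each Lmna KO library, for the 39 SLC25 genes (coloured bars) and all 12855 genes tested (grey bars), with bars from 0. KO 5 has the tallest member bar on the left, 56.4% beside 41.9% of all genes, and KO 3 the shortest on the right, 7.69% beside 24.4%.

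Promoters are shown for 4 carriers whose KO libraries lay mostly to one side of WT, so that their sequence can be set beside the values above. That of Slc25a12 is left out because its start in the deposited table lies outside the RefSeq window. Each is 250 bases before to 50 bases after the start of the gene, from RefSeq on GRCm38.p6, 5′ to 3′ on the minus strand that carries all 4 genes, and 32 of the 42 members had an entry. Capitals mark 5 motifs searched on both strands: the GC box GGGCGG, the CCAAT box CCAAT, the E-box CACGTG, the core GCGCATGC bound by NRF1 and the half-site AAGGTCA bound by estrogen-related receptors. The windows are chr11:70646990-70647289 for Slc25a11, chr6:6217124-6217423 for Slc25a13, chr12:108835827-108836126 for Slc25a29 and chr19:43674832-43675131 for Slc25a28.
Slc25a11: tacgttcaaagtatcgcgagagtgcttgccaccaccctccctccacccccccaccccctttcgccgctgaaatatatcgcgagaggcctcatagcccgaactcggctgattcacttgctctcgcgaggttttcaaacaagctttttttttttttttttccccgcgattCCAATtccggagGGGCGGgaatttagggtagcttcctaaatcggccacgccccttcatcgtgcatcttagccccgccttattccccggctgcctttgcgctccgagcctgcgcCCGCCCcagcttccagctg
Slc25a13: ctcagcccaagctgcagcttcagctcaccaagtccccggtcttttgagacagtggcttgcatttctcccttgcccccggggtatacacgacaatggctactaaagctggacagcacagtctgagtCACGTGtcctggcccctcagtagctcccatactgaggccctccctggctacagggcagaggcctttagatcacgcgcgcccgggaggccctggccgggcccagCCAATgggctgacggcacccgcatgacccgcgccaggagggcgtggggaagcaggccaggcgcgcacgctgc
Slc25a29: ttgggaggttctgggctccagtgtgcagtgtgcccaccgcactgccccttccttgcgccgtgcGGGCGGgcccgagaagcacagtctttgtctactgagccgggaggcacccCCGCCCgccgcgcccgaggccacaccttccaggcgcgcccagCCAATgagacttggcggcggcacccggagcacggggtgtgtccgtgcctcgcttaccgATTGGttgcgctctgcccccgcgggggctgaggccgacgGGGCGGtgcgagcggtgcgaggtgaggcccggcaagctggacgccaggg
Slc25a28: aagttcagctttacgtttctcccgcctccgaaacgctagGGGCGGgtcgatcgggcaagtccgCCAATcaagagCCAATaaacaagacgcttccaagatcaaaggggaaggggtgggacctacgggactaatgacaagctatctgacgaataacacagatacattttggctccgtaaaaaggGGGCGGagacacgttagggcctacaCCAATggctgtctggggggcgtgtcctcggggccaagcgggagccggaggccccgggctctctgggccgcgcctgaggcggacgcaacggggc
A GC box was present in 28 of 32 member promoters, against 35.9% of 27025 promoters, and a CCAAT box in 16 of 32, against 37.9%. The E-box was in 6 of 32 (7.24% of all), and the NRF1 core and the receptor half-site were each in 1 of 32 (2.8% and 4.66% of all). These shares were not tested, and a match is a string of letters, not a shown binding site.

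Genes that work beside the carriers, in 5 lists of 34 tested genes, had mostly negative changes. With all libraries 0 of 34 were called (limma), and 27 of the 34 log2 changes were negative, beside 6605 of 12855 over all genes tested. Without KO 5, 6 of 34 were called, 5 lower and 1 higher in Lmna KO, where 2.71% of all genes were lower and 2.27% higher. The 4 enzymes of the malate-aspartate shuttle had a median log2 change of -0.38, and Mdh2, the mitochondrial malate dehydrogenase, had 536.8, 429.3, 603.7, 650 and 419.4 in Lmna KO, against 784, 694.7, 813.4, 761 and 742.1 in WT. No KO library reached the WT range, and without KO 5 the log2 change of Mdh2 was -0.47 (limma, adjusted p = 0.0422). For the cytosolic partner Mdh1 the groups did not overlap either, with means of 1717 ± 428.7 in Lmna KO and 2295 ± 99.6 in WT (SD, n = 5 each).

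Of the import machinery that places carriers in the inner membrane, 13 of 15 tested genes had negative log2 changes, with a median of -0.29. Over all genes tested, 6605 of 12855 were negative, with a median of -0.01. Without KO 5, Agk, a lipid kinase that is also a TIM22 subunit, and Tomm5, a small TOM subunit, were called lower, by -0.42 and -0.40 in log2 units (limma, adjusted p = 0.0179 and 0.0422). Agk had 19.1, 19.2, 19.2, 18.1 and 7.97 in Lmna KO, against 26.3, 27.9, 26.5, 22.5 and 24.8 in WT, with no overlap. Among the 5 genes of the carnitine shuttle, Cpt1a and Cpt2, an outer and an inner membrane palmitoyltransferase on either side of Slc25a20, were called in opposite directions without KO 5, with log2 changes of 0.36 for Cpt1a and -0.37 for Cpt2 (limma, adjusted p = 0.0411 and 0.0295). The related gene Cpt1b averaged only 3.42 ± 1.08 in Lmna KO and 2.53 ± 0.38 in WT (SD, n = 5 each), beside 153 and 129 for Cpt1a. It was not called without KO 5 (log2 change 0.29, limma, adjusted p = 0.458). Why its signal was so low was not tested. The values of Cpt1a are therefore those of 1 gene and are not taken to stand for the outer membrane step. Of the pyruvate carrier and outer membrane channels, Mpc2 was called lower without KO 5 (log2 change -0.27, limma, adjusted p = 0.0425), and its partner Mpc1 was not (-0.13, adjusted p = 0.5). The 5 SLC25-like genes under other names, Ucp1 to Ucp3, Mtch1 and Mtch2, gave no call, and Mtch2, the most abundant, averaged 153 ± 18.3 in Lmna KO and 164 ± 7.58 in WT (SD, n = 5 each).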

How the data were processed

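Hearts of 5 Lmna KO and 5 WT mice were profiled by RNA-seq, and the genotype label gave the groups. TopHat2, Cufflinks, edgeR and build mm10 are named in the submitters' processing notes. Versions, roles, strand use and the handling of multiply mapping reads were not given in the sources used here. Per the file headers, the authors deposited 1 signal for each gene and library, a CPM of the effective library size. Their comparison table, deposited too, gives log2 ratios, p-values and false discovery rates. Whole reads were recovered from the signal for 100% of values, within 0.01 read, and were used in count-based alternatives.

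Of 14647 rows, 21 whose gene name had become a date held 0.134% to 0.204% of reads and were left out. The test was limma 3.58.1 in R 4.3.3 on log2(signal + 0.5) with an intensity trend, two-sided, over the 12855 genes whose mean signal reached 1, with Benjamini-Hochberg adjusted p under 0.05. Log2 changes are on this scale and understate changes of weakly expressed genes. Ratios of members were tested by exact permutation in R 4.3.3. Alternatives were edgeR 4.0.16, DESeq2 1.42.0, library weights, scaling, pseudocount, filters, a replicate block and left-out libraries. The procedure was tested on simulated data. Exon and coding lengths came from GENCODE M21 and promoters from RefSeq. Of the genes named, the 6 most abundant members and the most abundant of each class were set by rule, and every other member named was chosen after the values were seen. Members, classes and lists were chosen with earlier results of these data known. No library pair agreed within sampling noise. Of the 39 members tested, 1 is counted in the totals but not reported here by itself, and 1 marker gene was left out of the erythroid sum.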

Additional observations from a re-analysis of the deposited data

Results flagged for a closer look

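In groups of 5 libraries, 11 of 90 groups held a library whose distance to its nearest neighbour was more than 0.71 of the range of the group (Dixon's test), a mark that chance passes in about 1 in 20 groups. A total of 8 of these were in Lmna KO, 7 of them KO 5, and 3 were in WT. The same count was not made over all genes, and the groups share the same 10 libraries. The number is therefore not read as a result about the carriers. Over all genes tested, too, KO 5 stood apart, with 41.9% below and 40.9% above every WT library. KO 5 was low for Slc25a11 (a signal of 167.4), Slc25a13 (78.93), Slc25a20 (153.7) and Slc25a45 (3.098), high for Slc25a28 (60.54) and Slc25a33 (42.51), and low for the log2 ratio of Slc25a13 to Slc25a12 (-1.21). KO 2 was high for Slc25a32, the folate and FAD carrier (26.55). In WT, WT 4 was low for Slc25a4 (5128) and Slc25a12 (250.1), and WT 2 was high for Slc25a34 (268.6).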

How the results depend on the processing

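The family count of 0 higher and 0 lower held with edgeR, with either pseudocount, without a filter, with a minimum signal of 5, with other scaling, and with any 1 library left out (range 0 to 0). With library weights it was 1 higher and 3 lower, with DESeq2 0 higher and 1 lower, and without KO 2 and KO 5 together 1 higher and 3 lower. For the 34 genes of the other lists the counts were 3 higher and 10 lower with library weights, where 7.63% of all genes were higher and 10.1% lower. They were 1 lower with DESeq2, beside 2.52% of all genes, and 1 higher and 6 lower without KO 2 and KO 5, beside 4.24% and 6.42%. With 1 library left out they were 0 to 1 higher and 0 to 5 lower. Leaving out KO 5 gave the upper values, beside 2.27% of all genes higher and 2.71% lower. Over all genes the count of calls was 26 in the main test, 2280 with library weights, 786 with DESeq2 and 640 without KO 5. It was 6 to 9 without 1 WT library and 19, 14, 11 and 39 without KO 1, KO 2, KO 3 and KO 4, and the cause was not tested. With 1 library left out, the log2 difference of the ratios ranged over -0.199 to 0.146 for Slc25a5/Slc25a4 and -1.294 to -0.407 for Slc25a37/Slc25a28, where leaving out KO 2 gave unadjusted exact p values of 0.0397 and 0.0476. A replicate block called 0 members and 35 genes; same-numbered libraries correlated at -0.134 to 0.182, so the numbers were not taken as pairs.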
